A study of Mus musculus with 8 samples.

Results

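Stretches of open chromatin that lie far from any gene start and yet were called in every library of bone marrow stromal cells are described here. Peaks of 7 ATAC-seq libraries were joined into 50683 merged regions wherever they shared at least 1 base. Of these, 794 regions were members, chosen by the peak calls and by position: each held a peak of all 7 libraries, and its centre lay more than 5000 bases from every transcription start site of the GENCODE vM1 annotation on the mouse build mm9. Their presence in all libraries and their distance from start sites were therefore fixed by the choice. ATAC-seq uses the Tn5 transposase, which cuts accessible DNA and leaves sequencing adapters there.

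The study divided Sca-1 and PDGFRα positive mesenchymal cells of mouse marrow by sorting, and open chromatin was mapped in each fraction. The libraries are titled ATAC1 to ATAC7 and came from bone marrow of wild type C57BL/6J mice at postnatal age 6 weeks, with no treatment given in the labels. According to the methods of the study, cells negative for blood and endothelial surface markers were divided by further surface proteins, but no label ties a title to a fraction or gives the number of animals pooled. A single Input library was the control for all 7. Each title had 1 library, so differences between libraries have no replicate check and no test is given for them.

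The lists held 15188 peaks in ATAC7 to 32280 in ATAC2, and the reads in the 8428 regions called in all libraries ran from 2393199 in ATAC7 to 5658259 in ATAC6. Checked by peaks within 1000 bases of a start site, the sort marker *Pdgfra* had a peak in 5 libraries, whereas *Ly6a*, which encodes Sca-1, and the stromal genes *Lepr* and *Prrx1* had one in 0 libraries. *Ebf3*, a transcription factor of marrow stroma, had one in all 7, the stromal chemokine gene *Cxcl12* in 2, the blood cell marker *Ptprc* in 4, and the endothelial markers *Pecam1* and *Cdh5* in 1 and 0. Between 3 and 12 of 19 listed haematopoietic genes had such a peak, against 7 to 15 of 20 stromal genes. By library, haematopoietic genes with a peak outnumbered stromal ones in ATAC1 (10 against 8) and ATAC3 (9 against 7). They were equal in number in ATAC4 (7 and 7) and fewer in ATAC2, ATAC5, ATAC6 and ATAC7. The part of other cells in the regions below was not tested. All shares of regions below carry 95% Wilson intervals, which cover counting error only and treat regions as separate draws.

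Regions that stay open in many cell types are mostly promoters, above all those in CpG islands, where the CG dinucleotide has escaped the loss seen elsewhere in the genome. Away from promoters, the sites best known for being open across cell types are bound by CTCF, a zinc finger protein that stops cohesin and so helps to set the ends of chromatin loops. Enhancers, in contrast, tend to differ between cell types and often carry the sites of factors such as AP-1, the dimers of FOS and JUN proteins, RUNX and C/EBP. Sp and KLF proteins bind GC boxes, and NF-Y binds CCAAT boxes, both of which are common in promoters.

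Sequences are shown first, as read from the mm9 genome. Letters in capitals mark the match to CCNNNAGGNGGC, a shortened core of the CTCF site in which N is any base, searched on both strands of the 300 bases about each centre. The 6 members with this match and the best median rank over the 7 peak lists, where rank 1 is the strongest peak, read 5′ to 3′ on the strand of the match as follows.
Near *Ccne1*, chr7:38870027-38870088, plus strand: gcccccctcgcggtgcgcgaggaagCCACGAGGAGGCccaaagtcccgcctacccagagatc
Near *Eef2k*, chr7:127979347-127979408, minus strand: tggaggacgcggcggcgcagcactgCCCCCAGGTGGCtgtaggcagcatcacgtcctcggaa
Near *Klrb1c*, chr6:128753331-128753392, minus strand: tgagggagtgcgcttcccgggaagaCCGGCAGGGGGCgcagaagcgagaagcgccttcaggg
Near *Glis2*, chr16:4586675-4586736, plus strand: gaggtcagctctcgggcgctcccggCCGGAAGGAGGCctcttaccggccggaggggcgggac
Near a U6 gene, chr7:80763376-80763437, minus strand: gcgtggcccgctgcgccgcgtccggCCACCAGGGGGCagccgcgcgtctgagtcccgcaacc
Near *Rps6ka1*, chr4:133466634-133466695, plus strand: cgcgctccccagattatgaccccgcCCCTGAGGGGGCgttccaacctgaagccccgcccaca
All 6 windows held 1 match. The match lay 10.5 bases from the centre of the member in the *Rps6ka1* sequence and 124.5 bases from it in the *Klrb1c* sequence.

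The AP-1 letters TGANTCA, which read the same on both strands, are shown for the 3 best-ranked members that held them outside CpG-rich sequence. Capitals mark only the match nearest the centre of the member. The SNORA14 sequence also holds these letters in lower case, outside the 300 bases searched. These 3 members were picked after their values were seen.
Near a SNORA42 gene, chr13:75935341-75935397: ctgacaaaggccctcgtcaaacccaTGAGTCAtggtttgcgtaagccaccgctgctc
Near a 7SK gene, chr12:88174874-88174930: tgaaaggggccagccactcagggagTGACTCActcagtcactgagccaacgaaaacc
Near a SNORA14 gene, chr8:129373635-129373691: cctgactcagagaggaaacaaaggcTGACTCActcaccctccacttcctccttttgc
Each of these 3 windows of 300 bases held 2 AP-1 matches.

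To show the range of CG content, 200 bases about the centre of 3 members are given on the plus strand with each CG pair in capitals, for the 2 best-ranked CpG-rich members without a RefSeq start nearby and for the best-ranked AP-1 member above. These too were picked after their values were seen.
Near *Gm11809*, chr4:8574437-8574636: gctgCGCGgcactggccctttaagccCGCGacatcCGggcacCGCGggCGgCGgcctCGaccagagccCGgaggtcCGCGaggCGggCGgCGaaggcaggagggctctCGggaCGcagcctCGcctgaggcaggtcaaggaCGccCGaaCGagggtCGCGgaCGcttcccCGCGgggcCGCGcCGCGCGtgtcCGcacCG
Near *Ccne1*, chr7:38869913-38870112: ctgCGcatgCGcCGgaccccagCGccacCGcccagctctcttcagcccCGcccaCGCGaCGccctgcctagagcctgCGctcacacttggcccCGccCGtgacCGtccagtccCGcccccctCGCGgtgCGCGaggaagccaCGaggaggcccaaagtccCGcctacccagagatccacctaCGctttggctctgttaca
Near a SNORA42 gene, chr13:75935243-75935442: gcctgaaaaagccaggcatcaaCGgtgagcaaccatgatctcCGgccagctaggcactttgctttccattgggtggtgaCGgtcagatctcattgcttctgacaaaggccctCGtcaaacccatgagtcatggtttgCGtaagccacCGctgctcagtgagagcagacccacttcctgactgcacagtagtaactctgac
The *Gm11809* window held 34 CG pairs, the *Ccne1* window 21 and the last, which carries the AP-1 letters, 6.

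Distal regions were rarely shared by all libraries. Of 22926 distal regions, 794 (3.46%) were called in all 7, 634 in 6, 9938 in 2 to 5 and 11560 in 1. Of all 50683 merged regions, distal or not, 8428 were called in all 7. Among regions called in 1 library, 55.8% were distal, and the share was 55.5% at 3 libraries, 44.5% at 4, 36.5% at 5, 26.8% at 6 and 9.42% at 7. Most of the other regions called in all 7, 7221 of them, lay within 1000 bases of a start site and are called start-site regions below. The distal regions that missed a single library most often missed ATAC4, in 260 of 634 (41.0%), then ATAC7 in 131 and ATAC3 in 115, which are the libraries with the 3 shortest lists, and least often ATAC1, in 18.

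**Figure D1:**
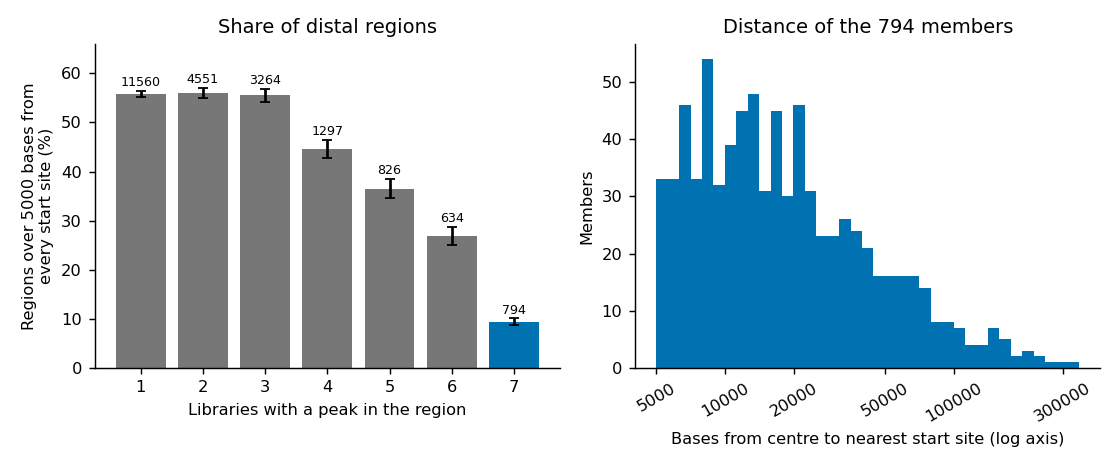
Left, share of merged regions whose centre is over 5000 bases from every start site (y axis, %) by the number of libraries with a peak (x axis), with 95% Wilson intervals and the number of distal regions above each bar. Right, number of members (y axis) by distance to the nearest start site (x axis, bases, log scale). The share falls from 55.8% at 1 library to 9.42% at 7, and members become fewer beyond about 20000 bases.

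Being called in all libraries did not mean that the peaks coincided. In 475 members (59.8%) at least 1 base was covered by a peak of every library, and the stretch so covered had a median of 67 bases; in the other 319 the peaks were joined in a chain. Among the start-site regions, 62.2% had a base covered in all 7. Exactly 1 peak per library was found in 543 members (68.4%), and 89 members (11.2%) had another member within 10000 bases. Members with and without a base open in all 7 had median relative levels, as defined below, of 0.742 and 0.679 in ATAC1 and of 0.685 and 0.634 in ATAC6.

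Most members lay between genes. The centre fell outside every annotated gene in 552 members (69.5%, 66.2 to 72.6), in an intron in 219 (27.6%), in a coding exon in 10, in an untranslated region in 6 and in another exon in 7. Distal regions called in fewer libraries were more often within introns: 62.5% of those in 6 libraries (58.6 to 66.1), 52.8% of those in 2 to 5 and 50.1% of those in 1 (49.2 to 51.0) lay between genes. Members had a median width of 426.5 bases, with quartiles of 299 and 582.75, against a median of 447 in start-site regions, 393 in distal regions of 6 libraries and 135 in those of 1. Joining the peaks of more libraries widens a region by construction, so width is in part fixed by the choice.

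The median distance from a member to a start site was 16096 bases. There were 232 members at 5000 to 10000 bases, 238 at 10000 to 20000, 209 at 20000 to 50000, 78 at 50000 to 100000 and 37 beyond. Chromosome 7 held most members, 71, which is 5.30% of its distal regions. The share was 5.82% on chromosome X, with 17 members, and between 2.59% and 4.65% on the other chromosomes.

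Of the members just inside the distance limit, chr2:118380176-118380689 was 5009.5 bases from the start of *Bmf*, a pro-apoptotic BCL-2 family gene, with 188, 119, 103, 94, 166, 91 and 100 reads in ATAC1 to ATAC7, and chr2:30567287-30567809 was 5015 bases from *Gm14488* with 302, 135, 180, 149, 309, 187 and 171. Just outside it were chr9:118997321-118997908, in an intron of the phospholipase gene *Plcd1* at 4999.5 bases, with 103, 238, 125, 142, 285, 257 and 101 reads, and chr11:117852963-117853355, in an intron of *Pgs1* at 4960 bases, with 238, 69, 144, 87, 168, 95 and 131. All 4 had read numbers of the same order.

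GENCODE vM1 is an early annotation, and some members were at gene starts that a later one lists. RefSeq promoter sequences of the build GRCm38.p6, 250 bases before to 50 after each start, were matched by sequence to the 10000 bases around each member. A RefSeq start lay within 1000 bases of the centre in 107 members (13.5%, 11.3 to 16.03), of which 50 were starts of protein-coding genes and 57 of long non-coding RNAs, and within 5000 bases in 167 (21.0%). The share within 1000 bases was 7.41% (5.62 to 9.72) in distal regions of 6 libraries, 4.005% in those of 2 to 5 and 3.16% (2.85 to 3.49) in those of 1. Without the 167, 627 members were left.

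In base composition the members stood between start-site regions and other distal regions. The median GC content of the 300 bases about the centre was 54.3% in members, with quartiles of 50% and 61.3%, 66.3% in start-site regions, 52.5% in distal regions of 6 libraries and 48.7% in those of 1. In windows centred 3000 bases to either side of the members it was 46.0%. In the 413 regions called in all 7 at 1001 to 5000 bases from a start site it was 57.7%. The ratio of observed to expected CG pairs, for which C and G placed at random give 1, had a median of 0.450 in members, 0.860 in start-site regions and 0.189 in the flanking windows.

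A window was called CpG-rich when its GC content was at least 50% and its CG ratio at least 0.6. By this rule 243 members (30.6%, 27.5 to 33.9) were CpG-rich, beside 29.2% of all merged regions, start-site regions included. Among distal regions the share was 12.9% (10.5 to 15.8) in those of 6 libraries, 3.88% in those of 2 to 5 and 2.08% (1.84 to 2.36) in those of 1, against 87.4% of start-site regions and 1.01% of flanking windows. Regions called in all 7 at 1001 to 5000 bases from a start site stood at 41.6% (37.0 to 46.5). CpG-rich members were between genes in 80.2% of cases, and the other members in 64.8%. A RefSeq start lay within 1000 bases of 62 of the 243 CpG-rich members (25.5%, 20.4 to 31.3) and of 45 of the 551 others (8.17%, 6.16 to 10.8), so 181 CpG-rich members had none that close.

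**Figure D2:**
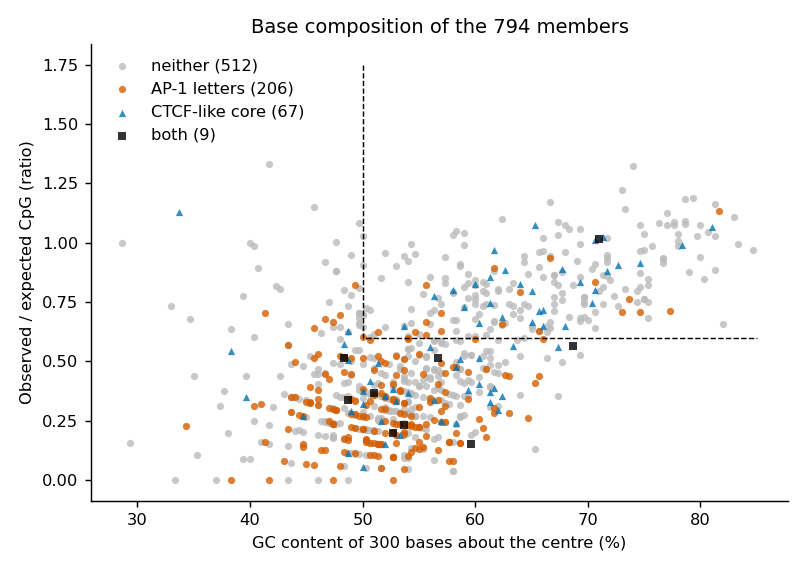
GC content (x axis, %) and ratio of observed to expected CG pairs (y axis) in the 300 bases about the centre of each of the 794 members, coloured by the AP-1 and CTCF-like letters. The dashed lines mark a GC content of 50% and a ratio of 0.6, above which 243 members lie, and AP-1 members gather at the low ratios.

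The CTCF-like core was found in 76 members (9.57%, 7.72 to 11.8), against 5.89% of all merged regions. The share was 7.05% (6.48 to 7.66) in start-site regions, 7.10% (5.35 to 9.37) in distal regions of 6 libraries, 5.08% (4.69 to 5.49) in those of 1 and 1.01% (0.622 to 1.63) in the flanking windows. In regions called in all 7 at 1001 to 5000 bases from a start site it was 8.23% (5.95 to 11.3). The interval of the members overlapped that of the distal regions of 6 libraries and lay above those of the distal regions of 1 library and the flanks. It also lay above that of the start-site regions, but narrowly (7.72% against 7.66%), and this did not hold for other forms of the core. Since the letters are rich in G and C, windows with a GC content of 45% to 60% were also compared: 35 of 495 members (7.07%, 5.13 to 9.67), 4.57% (3.64 to 5.72) of start-site regions, 7.19% of distal regions of 6 libraries, 5.12% (4.66 to 5.61) of those of 1 and 1.56% (0.933 to 2.61) of flanks had the core. In this range of GC content the members thus stood above the flanks, and their interval overlapped those of the other open regions.

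Most members, 718 of 794, did not hold this exact core, which says only that these letters were not in the window. A wider core, CCNNNAGNNGGC, was present in 17.5% of members (15.02 to 20.3), 15.7% of start-site regions (14.9 to 16.5), 13.7% of distal regions of 6 libraries (11.3 to 16.6), 13.4% of all merged regions and 5.29% of flanking windows. The letters AGGGGGCGC were in 2.77% of members (1.84 to 4.16), 2.47% of start-site regions (2.13 to 2.85), 1.56% of all merged regions and 0.189% of flanks. With either form the intervals of members and start-site regions overlapped. Of the 76 members with the core, 31 were CpG-rich and 24 also held the Sp/KLF letters, which can overlap the core.

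AP-1 letters were present in 215 members (27.1%, 24.1 to 30.3), against 21.0% of all merged regions, 3.78% (3.36 to 4.25) of start-site regions, 35.3% (31.7 to 39.1) of distal regions of 6 libraries, 35.3% (34.4 to 36.3) of those of 2 to 5, 29.2% (28.4 to 30.04) of those of 1 and 9.83% (8.46 to 11.4) of flanks. The members were thus below distal regions of 6 and of 2 to 5 libraries, and their interval overlapped that of distal regions of 1 library. This depended on the set of members. With ATAC4 left out, 1041 distal regions were called in all other libraries and 31.8% held the letters, within the interval of distal regions of 6. In windows of 45% to 60% GC the shares were 34.3% (30.3 to 38.6) in members, 38.8% (34.4 to 43.3) in distal regions of 6 libraries, 36.2% (35.1 to 37.3) in those of 2 to 5, 29.04% (28.1 to 30.02) in those of 1 and 6.24% in start-site regions. In this range of GC content the interval of the members overlapped those of the distal regions of 6 and of 2 to 5 libraries. It lay above that of the distal regions of 1, but narrowly (30.3% against 30.02%). The letters GGGGCGG, one form of the box bound by Sp and KLF proteins, were present in 184 members (23.2%, 20.4 to 26.2), against 18.1% of all merged regions, 49.8% of start-site regions, 10.7% of distal regions of 6 libraries and 3.67% of those of 1. Regions called in all 7 at 1001 to 5000 bases from a start site held AP-1 letters in 19.1% (15.6 to 23.2) and GGGGCGG in 26.6% (22.6 to 31.1).

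Composition divided the members by motif. AP-1 letters were in 8.23% of CpG-rich members (5.39 to 12.4) and 35.4% of the others (31.5 to 39.5). RUNX letters, TGTGGTT, were in 1.23% (0.421 to 3.57) and 12.9% (10.3 to 15.9), and C/EBP letters, TTGCNNAA, in 6.17% (3.78 to 9.93) and 17.1% (14.1 to 20.4). In contrast, the GC box was in 48.6% of CpG-rich members (42.3 to 54.8) and 11.98% of the others (9.53 to 15.0), and the NF-Y letters AGCCAAT in 16.05% (11.97 to 21.2) and 5.99% (4.30 to 8.29). The CTCF-like core was in 12.8% (9.13 to 17.5) and 8.17% (6.16 to 10.8), with overlapping intervals. These letters differ in GC content themselves, and that part of the contrast was not tested.

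Letters common in promoters were compared between CpG-rich members and all start-site regions. Of the latter 87.4% were CpG-rich, so the 2 sets are not alike in CpG content. The GC box was about as frequent in them as in start-site regions, at 48.6% and 49.8%. ETS letters, CCGGAAGT, were in 3.29% of CpG-rich members (1.68 to 6.36) and 8.42% of start-site regions (7.80 to 9.08), and YY1-like letters, AAGATGGCG, in 1.65% (0.642 to 4.16) and 4.196% (3.76 to 4.68), while NRF1-like letters, GCATGCGC, were in 5.35% and 5.58%. NF-Y letters were in 16.05% (11.97 to 21.2) and 11.4% (10.7 to 12.2). The intervals were apart for ETS and overlapped for YY1-like and NF-Y letters.

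RUNX letters were in 9.32% of all members (7.49 to 11.5) and 8.44% of flanks (7.17 to 9.91), and C/EBP letters in 13.7% (11.5 to 16.3) and 11.3% (9.82 to 12.9), with overlapping intervals in both. Over all merged regions the shares were 8.72% and 11.5%, and RUNX letters were in 13.1% of distal regions of 2 to 5 libraries (12.4 to 13.8) and 12.1% of those of 1 (11.56 to 12.8), above the upper bound of 11.54% in members, the second narrowly. In distal regions of 6 libraries they were in 10.9% (8.69 to 13.5), an interval that overlaps that of members. GATA letters, AGATAAG, were in 2.14% of members (1.34 to 3.40) and 4.28% of flanks (3.39 to 5.40), and PU.1-like letters, GAGGAAGT, bound by a factor of blood cells, in 5.29% (3.94 to 7.07) and 2.71% (2.02 to 3.63), beside 2.66% and 3.55% of all merged regions. Distal regions of 6 libraries held the PU.1-like letters in 5.99%, so these were not particular to members. EBF letters, CCCNNGGGA, were in 7.30% of members (5.69 to 9.33), 8.66% of start-site regions, 7.46% of all merged regions and 4.79% of flanks (3.84 to 5.95).

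**Figure D3:**
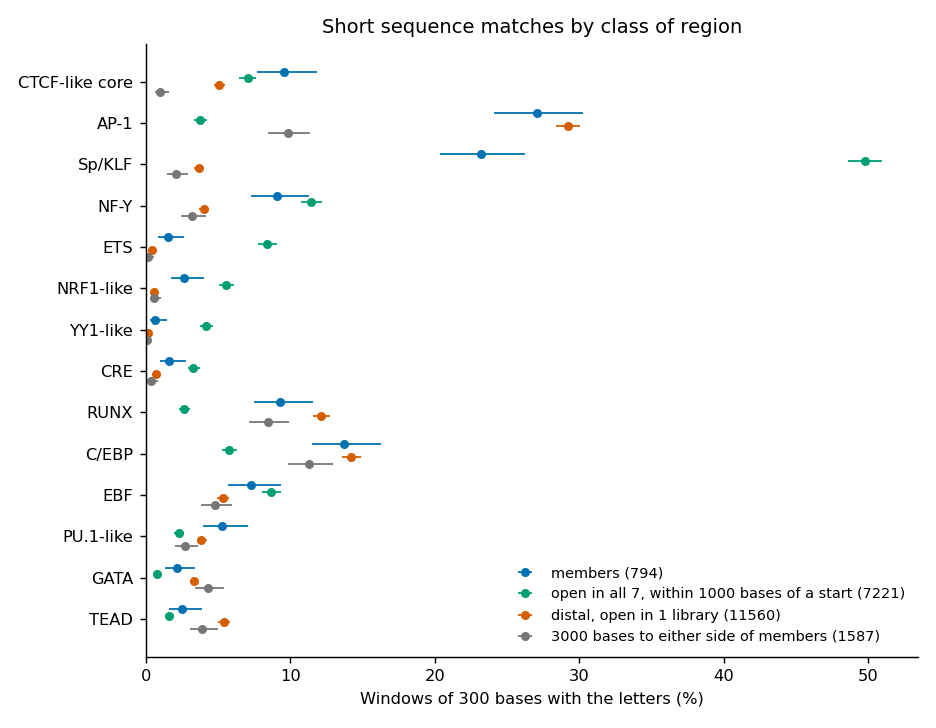
Share of 300-base windows (x axis, %) with each set of letters (y axis) in members, start-site regions, distal regions of 1 library and windows 3000 bases to either side of members, with 95% Wilson intervals. AP-1 stands at 27.1% in members and 3.78% in start-site regions, and Sp/KLF at 23.2% and 49.8%.

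Members with AP-1 letters, with the CTCF-like core and with CpG-rich sequence overlapped in part. AP-1 letters and the CTCF-like core occurred together in 9 members, AP-1 letters and CpG-rich sequence in 20, the CTCF-like core and CpG-rich sequence in 31, and all of them in 1. A total of 319 members (40.2%) had none of the 3. When all words of 8 letters were ordered by how much more often they occurred in members than in flanks, 34 of the first 50 held CGCC or its reverse complement and 5 the AP-1 letters. The first word, CCCCGCCC, was in 17.0% of members, 1.39% of flanks and 36.8% of start-site regions, and the first AP-1 word, GTGACTCA, in 10.3%, 1.45% and 1.38%.

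Matches became rarer away from the centres of the members. AP-1 letters had 1.23 matches per 1000 bases within 50 bases of the centre, 1.31 at 50 to 100, 0.642 at 150 to 200 and 0.227 at 400 to 500. In start-site regions their density was 0.134 within 50 bases and 0.191 at 400 to 500, with no peak at the centre. The CTCF-like core had 0.416 matches per 1000 bases within 50 bases of the centre of a member, from 33 matches, and 0.0567 at 400 to 500, from 9, whereas in start-site regions it fell from 0.245 to 0.0969. The GC box fell from 1.39 to 0.227 in members and from 2.91 to 0.665 in start-site regions.

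**Figure D4:**
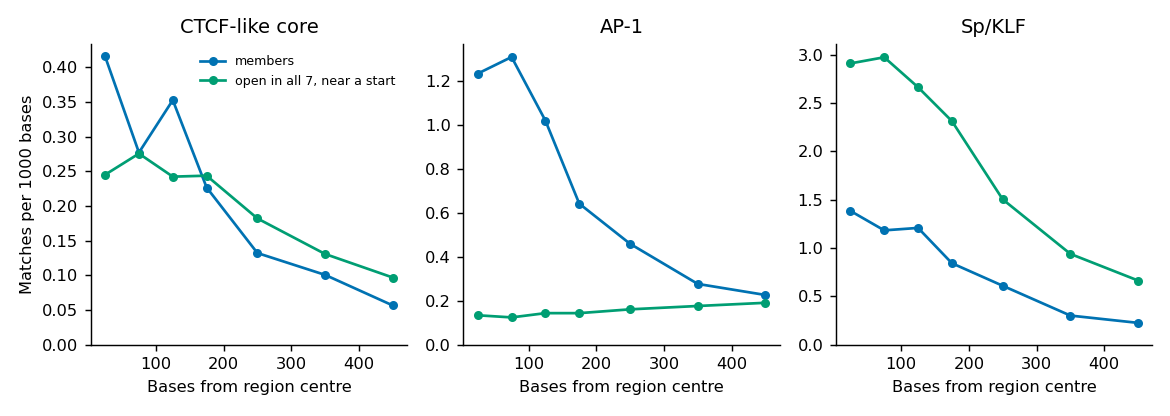
Matches per 1000 bases (y axis) of 3 sets of letters against the distance from the region's centre (x axis, bases) in 794 members and 7221 start-site regions; points are placed at the middle of each distance bin. AP-1 falls from 1.23 to 0.227 in members and does not peak at the centre of start-site regions.

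Members were a small part of the reads in shared regions, in every library. Reads are the library's reads in the outer region of its best-ranked peak in a region, the wider interval that the peak caller gives. The share of the reads of all 8428 shared regions that fell in members was 6.17% in ATAC2, 5.78% in ATAC7, 5.33% in ATAC5, 5.32% in ATAC3, 5.05% in ATAC1, 4.80% in ATAC4 and 4.70% in ATAC6. Members covered 6.78% (ATAC6) to 7.77% (ATAC7) of the bases of these outer regions, more than their share of the reads in all 7 libraries.

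The median member had 285 reads in ATAC5, 234 in ATAC6, 212 in ATAC1, 186 in ATAC2, 139 in ATAC3, 129 in ATAC7 and 116 in ATAC4. The lowest member of a library had 30 (ATAC3) to 56 (ATAC5) reads and the highest 1278 (ATAC4) to 2769 (ATAC5). Input reads had a median of 20 to 30, and no member lacked Input reads in all libraries. A member had to be called in the library with the weakest signal there, so low values could not occur.

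To compare libraries, reads per base were divided by the median of each library over the 8428 shared regions, which gives a relative level. The median relative level of members was 0.799 in ATAC2, 0.753 in ATAC7, 0.739 in ATAC5, 0.724 in ATAC3, 0.717 in ATAC1, 0.678 in ATAC4 and 0.663 in ATAC6, where the quartiles in ATAC2 were 0.613 and 1.05 and those in ATAC6 0.503 and 0.875. Start-site regions had 1.03 to 1.07, which the scaling fixes near 1 because they are 7221 of the 8428 regions.

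CpG-rich members had the higher level in each library. Their median relative level ran from 0.829 in ATAC1 to 0.924 in ATAC5, against 0.588 in ATAC6 to 0.743 in ATAC2 for the 551 other members. The gap was widest in ATAC6, with 0.904 and 0.588, and narrowest in ATAC1, with 0.829 and 0.681. Members with AP-1 letters had 0.593 in ATAC6 and 0.777 in ATAC2, and those with the CTCF-like core 0.740 in ATAC3 to 0.856 in ATAC5.

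**Figure D5:**
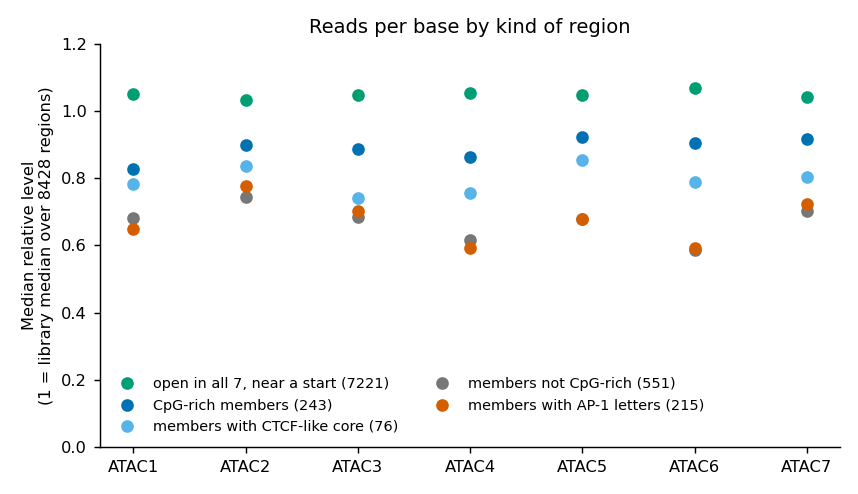
Median relative level (y axis, reads per base over the library's median for 8428 shared regions) of kinds of members and of start-site regions in each library (x axis), with 1 library per title. Members that are not CpG-rich span 0.588 to 0.743; start-site regions, which make up 7221 of the 8428 regions behind the scaling, are held near 1 by it.

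Level also moved with GC content. In ATAC6 the median relative level of members was 0.542 below 50% GC and 0.935 at 65% and above, and in ATAC2 it was 0.701 and 0.966. Start-site regions had 0.823 and 1.11 in ATAC6 and 0.857 and 1.05 in ATAC2. At 50% to 55% GC, 215 members had 0.593 in ATAC6 and 0.734 in ATAC2, while 451 start-site regions had 0.968 and 0.996. The part of GC content in the lower level of members was not tested.

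The libraries took unequal turns as the highest and lowest. ATAC2 had the highest relative level in 226 members (28.5%), against 17.6% of all regions called in all 7, and the lowest in 91 (11.5%), against 20.6%. ATAC4 had the highest in 55 (6.93%), against 11.5%, and the lowest in 163 (20.5%), against 15.8%. ATAC6 had the lowest in 203 members (25.6%), against 15.2% of all regions called in all 7, and ATAC7 in 53 (6.68%), against 12.6%. With 1 library per title, a population and a library cannot be told apart here.

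The ratio of the highest to the lowest relative level over the 7 libraries had a median of 1.78 in members, with quartiles of 1.55 and 2.10, and 1.54 in start-site regions. It was 1.62 in CpG-rich members, 1.87 in the others, 1.70 with the CTCF-like core and 1.88 with AP-1 letters. Regions with fewer reads had the higher ratios. Read number went with CpG content too, with medians of 132 reads in the lowest library of CpG-rich members and 82 in the others, and the parts of read number and CpG content in the ratio were not tested. Members with under 75 reads in their lowest library had a median ratio of 1.92 and start-site regions of that kind 1.73, and with at least 300 reads the values were 1.496, from 60 members, and 1.46.

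The 6 members with the best median rank were all between genes, and 5 of them were CpG-rich. At chr6:122760898-122761479, 8743.5 bases from the start of the forkhead gene *Foxj2*, there were 2128, 1758, 1249, 1278, 2552, 2166 and 1123 reads in ATAC1 to ATAC7. At chr1:94076909-94077109, 32039 bases from the annotated start of *Hdac4*, a class II histone deacetylase, there were 2091, 1133, 1332, 1266, 2295, 2426 and 1262. Their median ranks over the 7 lists were 70 and 95, and the second lay 91 bases from a RefSeq start of *Hdac4*.

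At chr4:8574375-8574697, nearest to the pseudogene *Gm11809* and 43081 bases from the start of *Chd7*, which encodes a chromatin remodeller, reads were 1133, 752, 813, 630, 1439, 1382 and 643. Its 300 bases had a GC content of 77.0% and no RefSeq start within 5000 bases, and its CG pairs are those of the first 200-base sequence above. At chr7:80703392-80703581, 16854.5 bases from the start of *Chd2*, another chromatin remodeller, they were 1650, 959, 1035, 935, 1826, 1724 and 817. This member lay 205 bases from the RefSeq start of *Chaserr*, a long non-coding RNA gene next to *Chd2* that is known to restrain it.

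At chr5:25035164-25035751, 379 bases from the RefSeq start of *1700096K18Rik*, reads were 1627, 1002, 1118, 850, 1855, 1719 and 939. At chr7:6315386-6315705, 470 bases from a RefSeq start of the zinc finger gene *Zfp78*, they were 1647, 1975, 1166, 1004, 2769, 2703 and 1337. Thus 4 of the 6 strongest members lay near starts absent from the annotation that defined them. None of the 6 held the CTCF-like core or AP-1 letters.

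The 6 best-ranked CTCF-like members had median ranks of 388 to 2024, and all 6 were between genes and CpG-rich. None was among the 6 members described above, so the choice fixed that they ranked behind those. Over all 76 CTCF-like members the median of these ranks was 7880, against 8782.5 over all 794 members. The member of the *Ccne1* sequence, chr7:38869733-38870292, is near the gene of cyclin E1 and had 1107, 1035, 720, 688, 1388, 2065 and 678 reads. That of *Eef2k*, the kinase of elongation factor 2, chr7:127979045-127979647, had 1005, 684, 501, 535, 1342, 863 and 509. That of *Klrb1c*, a natural killer cell receptor gene, chr6:128753087-128753387, had 770, 675, 475, 525, 1102, 991 and 578.

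The member of the *Glis2* sequence, a zinc finger gene, chr16:4586369-4586897, had 661, 634, 455, 500, 1036, 1340 and 480 reads. That near the U6 gene, chr7:80763140-80763485, 76680.5 bases from *Chd2*, had 1353, 921, 872, 822, 1380, 1483 and 841. That of *Rps6ka1*, a ribosomal S6 kinase gene, chr4:133466351-133466999, had 569, 363, 512, 446, 808, 844 and 347. The ratio of the highest to the lowest relative level was 1.33 to 1.73 in these 6.

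The best-ranked AP-1 member outside CpG-rich sequence, chr13:75935210-75935475, had 710, 1189, 553, 384, 1353, 699 and 525 reads and a ratio of 1.31. That near the 7SK gene, chr12:88174744-88174936, had 694, 491, 509, 295, 790, 827 and 318 and lay 127 bases from a RefSeq start of *Gm40491*. That near SNORA14, chr8:129373567-129374036, had 556, 607, 565, 187, 845, 609 and 408 and lay 881 bases from a RefSeq start of *A630001O12Rik*. In relative level, ATAC6 was lowest in the members near SNORA42 and 7SK, and ATAC4 in the one near SNORA14.

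Relative levels differed most between libraries in 4 members. At chr3:61962987-61963162, 179191.5 bases from *Arhgef26*, there were 249 reads in ATAC6 and 141 in ATAC2 but 59 to 100 in the other libraries, a ratio of 3.99 between ATAC6 and ATAC5. In an intron of *Atp10a*, a lipid flippase gene, chr7:65932365-65932914 had 224, 744, 269, 131, 770, 523 and 244 reads and a ratio of 3.89 between ATAC2 and ATAC4. At chr9:87358959-87359329 reads were 211, 488, 211, 155, 564, 568 and 350, with a ratio of 3.43 between ATAC2 and ATAC1. The relative level of ATAC2 was 1.73, 1.77 and 1.98 in these 3, and the *Atp10a* member and the one on chromosome 9 held AP-1 letters. In the same 2 members no base was covered by a peak of every library. Their ratios can therefore set different stretches against each other.

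The fourth, chr18:68851732-68851919, had a ratio of 3.57 between ATAC6 and ATAC5, with 96, 226, 110, 82, 91, 350 and 127 reads, and its sequence had 12 copies elsewhere in the genome. Levels were most even at chr15:81344504-81344948, with 167, 99, 170, 82, 173, 178 and 92 reads and a ratio of 1.13, and at chr2:118801786-118802466, with 139, 97, 109, 100, 237, 157 and 167 reads and a ratio of 1.19. The member on chromosome 2 had no base covered by a peak of every library.

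The 4 members farthest from a start site were mostly of repeated sequence. Both members of chromosome Y, 339274.5 and 309531 bases from *Gm3395*, had 287 and 164 copies elsewhere, at 90% identity over 80% of the window, and a GC content of 33.3% and 29.3%. The first had 242, 157, 304, 296, 154, 148 and 489 reads, and the second 221, 170, 505, 299, 225, 268 and 309. The member of chromosome 18 described above came next, 257969.5 bases from a start. The remaining one, chr9:32748068-32748341, was 244577.5 bases from *Ets1*, a transcription factor gene, had no copy and held 97, 140, 103, 85, 145, 132 and 96 reads.

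Copies were otherwise rare. At least 1 copy elsewhere was found for 20 members (2.52%, 1.64 to 3.86), against 0.969% of start-site regions (0.768 to 1.22), and at least 10 for 7 members. No member, 0 of 794, matched the mitochondrial genome. In copied sequence, reads from the copies and from the member cannot be told apart.

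The nearest protein-coding gene was a listed cell type gene for 9 members (1.13%), beside 1.15% of all distal regions and 0.904% of all merged regions. Of the 794, 1 was nearest to a gene of the stromal niche list of 20 genes, 0 to osteoblast and 0 to chondrocyte genes, 4 to adipocyte genes, 2 to haematopoietic and 2 to endothelial genes. These lists were nearest to 50, 42, 74, 23, 37 and 38 of all distal regions, in the same order, so that 9 of 264 such regions were members, beside 3.46% of all distal regions.

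Near *Nt5e*, the gene of the stromal surface enzyme CD73, chr9:88168200-88168405 lay 54144.5 bases from the start and had 200, 266, 178, 151, 221, 234 and 164 reads. Near *Ebf2*, a factor of adipocyte precursors, chr14:67807354-67808194 had 113, 246, 136, 103, 232, 132 and 118. In relative level, ATAC2 was highest in the first and ATAC5 in the second, at 1.30 and 0.943.

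Near *Cebpb*, a C/EBP factor of adipocyte and myeloid differentiation, 3 members lay 65216 to 76430.5 bases from the start. The nearest, chr2:167579498-167579764, had 339, 55, 198, 178, 105, 69 and 83 reads, the next, chr2:167585336-167585779, 235, 108, 218, 88, 117, 143 and 105, and the farthest, chr2:167590717-167590974, 100, 115, 83, 99, 278, 139 and 113. The first had its highest relative level in ATAC4, the next in ATAC1 and the farthest in ATAC7, so the 3 did not share an order of libraries.

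In an intron of *Runx1*, a master regulator of blood formation, chr16:92621116-92621511 had 272, 173, 282, 101, 454, 297 and 131 reads. In an intron of *Vwf*, the gene of von Willebrand factor of endothelial cells, chr6:125522907-125523727 had 172, 114, 121, 205, 213, 243 and 88. At 78500.5 bases from *Cdh5*, the gene of the endothelial cadherin, chr8:106546792-106547257 had 327, 253, 213, 222, 528, 228 and 353. The *Nt5e*, *Ebf2*, *Runx1* and *Vwf* members held AP-1 letters, as did the *Cebpb* member farthest from the start, which makes 5 of these 8, beside 27.1% of all members and 21.0% of all merged regions. The ninth, in an intron of the leukocyte gene *Ptprc*, was outside the 8 best-ranked and held none.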

How the data were processed

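ATAC-seq libraries of bone marrow stromal cells, 7 titles with 1 library each and an Input library, were analysed. Per the study's methods the authors aligned reads to mm9 with bowtie and called peaks per library against Input with CisGenome; the labels' processing notes also name DiffBind and bedtools. The extraction text of the labels describes an RNA kit, which does not match the measurement. Shifting of reads and removal of duplicates are not given in the sources used here; duplicates would raise read counts, and a shift would move edges slightly. The deposited tables hold whole-number read counts of library and Input per outer region, the authors' fold (a ratio over Input) and a non-negative signal used for ranking. Coordinates are printed as the files give them. The separate coordinate lists were not used.

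Peaks with at least 1 shared base were merged, and centres were compared with 86879 start sites. GC content and motifs were read in 300 bases of NCBIM37 (mm9). Copies and RefSeq promoters (at least 98% identity over 200 bases) were found with BLAST 2.17.0. Python 3.11.15, numpy 2.4.6, pandas 2.3.3 and SciPy 1.17.1 were used, and steps were tested on simulated data. Depth is known only as reads in peaks. Named members were the 6 of best median rank, the 4 farthest from a start, the 4 of highest and 2 of lowest ratio, the 6 best-ranked with a CTCF-like core, those next to the limit and the 8 best-ranked next to listed genes; the AP-1 and CpG-rich examples were added later. The members, gene lists and letters were chosen with earlier results of these data known. No p-value is given across regions, which are no replicates. The alternatives tried are given in the closing section.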

Additional observations from a re-analysis of the deposited data

How the results depend on the processing

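No paired analysis was possible because no group holds more than 1 sample. The number of members, 794, was 475 when a base had to be covered in all 7 libraries, 515 with peaks of at least 5-fold over Input and 527 with the 15188 best-ranked peaks of each list. It was 562 to 1045 with other distance limits, start sites or merging, and 805 to 1041 with a library left out, the highest without ATAC4. CpG-rich sequence was in 23.3% of members at 5-fold, 39.3% with equal lists, 25.3% without ATAC4 and 25.7% without the members near RefSeq starts, and AP-1 letters in 31.8% without ATAC4; the alternatives of these 2 shares were added after seeing the data. The share with a CTCF-like core, 9.57%, was 12.6% over the region as called, 6.55% in 200 and 13.98% in 600 bases, windows of other lengths, and 17.5% with the wider and 2.77% with the 9-letter core. It lay between 7.77% and 11.6% for the other sets of members. The share of members between genes, 69.5%, was 72.8% beyond 10000 bases. The causes were not tested.

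The share of shared reads in members, in the order ATAC1 to ATAC7, was 6.10%, 7.34%, 6.42%, 5.79%, 6.41%, 5.65% and 6.96% beyond 2500 bases, 3.56%, 4.42%, 3.79%, 3.39%, 3.76%, 3.28% and 4.08% beyond 10000 bases, and 4.94%, 6.02%, 5.196%, 4.68%, 5.23%, 4.59% and 5.64% without copied members, which follow from the number of regions counted. Over all outer regions it moved beyond counting error to 5.15% in ATAC1, 6.22% in ATAC2, 4.90% in ATAC4, 5.44% in ATAC5 and 4.80% in ATAC6, and after subtraction of scaled Input to 6.26% in ATAC2, 5.37% in ATAC3 and 5.86% in ATAC7. ATAC2 was highest and ATAC6 lowest in all these settings. The ratio between the highest and lowest library had a median of 1.92 in members with under 75 reads in their lowest library and 1.496 in those with at least 300.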
